A study of Homo sapiens with 6 samples.

Results

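The genes described here are MBNL1, MBNL2, MBNL3, ESRP1, ESRP2, RBFOX2, QKI, CELF1, PTBP1 and RBM47, a list of 10 RNA-binding regulators of alternative splicing, several of which are linked to epithelial-mesenchymal transition (EMT). MBNL3 was chosen by its own gain from almost no counts in this comparison, so its values are given as a description without a test, while the other symbols were listed for their function with earlier results of these data known. Of the 10 symbols, 9 had a row among the 12703 genes of the count table, and ESRP1 was not analysed here. The cells were PC3, an established human prostate cancer line from a bone metastasis that has little endogenous GCNT1. The study compared 3 stable PC3 lines transduced with lentiviral particles carrying GCNT1, the glycosyltransferase that forms core 2 branched O-glycans, with 3 PC3 lines that received negative-control particles, and each gave 1 stranded mRNA library. The promoter driving GCNT1, and whether each line was 1 clone or a pool, are not given in the sources used here. The question asked of these genes is whether transcripts of splicing regulators differed with GCNT1 overexpression. The counts are per gene and do not separate isoforms, so splicing itself was not measured.

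Alternative splicing is set by RNA-binding proteins that sit on or near an exon and promote its inclusion or skipping. Muscleblind-like (MBNL) proteins are zinc finger proteins that drive the switch from fetal to adult isoforms and are sequestered by repeat RNA in myotonic dystrophy. ESRP1 and ESRP2 maintain epithelial isoforms of genes such as FGFR2, CD44, CTNND1 and ENAH and are lost in EMT, when the transcription factor ZEB1 represses them, whereas RBFOX2 and QKI promote mesenchymal isoforms.

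The libraries held 11392213 to 13825704 counts. Levels are given as CPM, counts scaled by library size and TMM factors, with mean ± SD over the 3 libraries of a group, and every adjusted p is Benjamini-Hochberg adjusted over all genes in edgeR's quasi-likelihood test. GCNT1 itself was counted 9, 13 and 8 times in the control lines and 13, 16 and 35 times in the GCNT1 lines, a small rise from 0.812 ± 0.20 to 1.59 ± 0.77 CPM (log2 fold change 0.98, SE 0.37, edgeR adjusted p = 0.0362) in which the highest value was that of GCNT1 replicate 3. Without that library the log2 fold change was 0.49 (edgeR adjusted p = 0.269), without control replicate 1 or 3 the edgeR adjusted p was 0.0920 or 0.0944, and DESeq2 gave an adjusted p of 0.0821. The paper checked overexpression in its PC3 cells separately, by ELISA, immunocytochemistry and real-time PCR, and lists GCNT1 among its differentially expressed genes. The epithelial keratins KRT8 and KRT18 were abundant in both groups, with 222 ± 7.77 and 253 ± 7.94 CPM in controls and 202 ± 19.8 and 222 ± 8.53 CPM with GCNT1 (n = 3 each). KLK3 and TP63 were not analysed here. Of 18 epithelial, prostate and PC3 markers 11 had a row, and 4 were called (36.4%), beside 19.3% of all genes. KRT7 was called higher, and 3 were called lower, KRT19 and TMPRSS2 among them. By the adjusted p alone 2 were higher and 6 lower, beside 28.3% and 29.3% of all genes. The summed level of these markers was 3509 to 3702 CPM in controls and 3485 to 3746 CPM with GCNT1. Abundant genes weigh most in such a sum. Of 16 markers of immune, endothelial, stromal, muscle and neuroendocrine cells 4 had a row. Of these 2 were called (50%), PECAM1 higher and SYP lower. The summed level of the 4 was 89.5 to 102 CPM in controls and 88.7 to 99.9 CPM with GCNT1. PTPRC, CD3E, VWF and the other 9 were not analysed here. In these bulk libraries a change in the number of cells that make a transcript and a change in RNA per cell cannot be told apart.

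A gene was called when its adjusted p was under 0.05 and its absolute log2 fold change over 0.58, the limits used by the study, and 19.3% of all genes were called, 8.28% higher and 11.1% lower with GCNT1. Without the limit on the fold change 57.6% of all genes passed the adjusted p, 28.3% higher and 29.3% lower. Of the 8 listed genes not chosen by their values, 2 were called. ESRP2 was higher and QKI lower with GCNT1, and the other 6 missed the adjusted p limit as well. A count of 2 of 8 is close to the share of all genes called. The median log2 fold change of the 8 genes was 0.03, beside 0.00 for all genes.

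**Figure D1:**
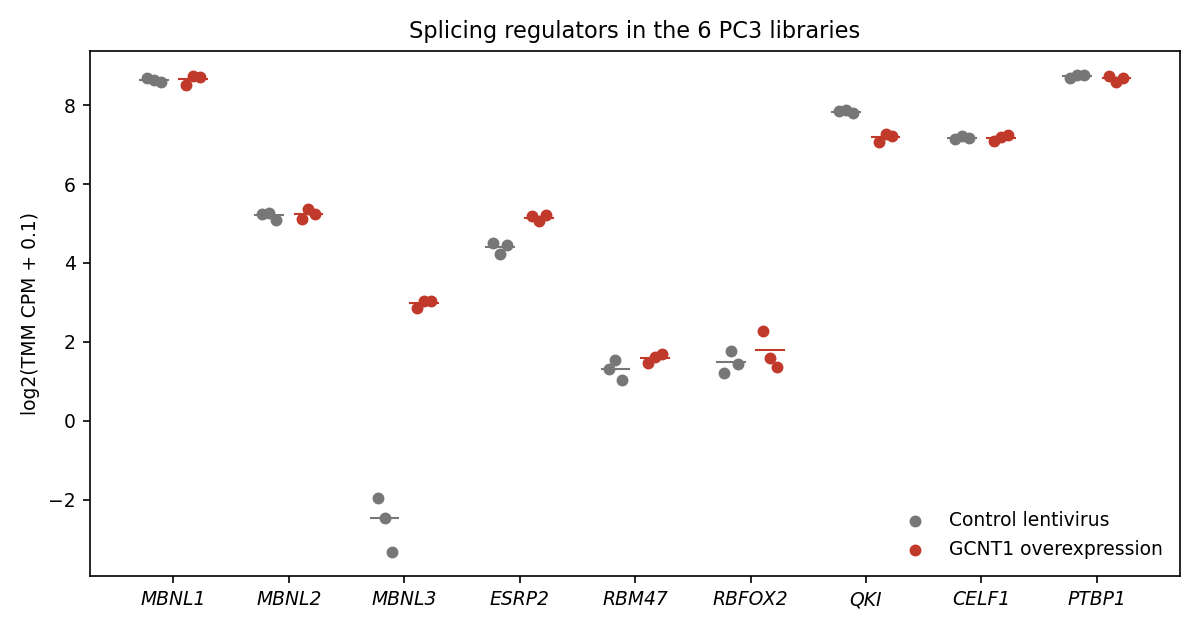
Level of each of the 9 regulators in the 6 PC3 libraries, as log2 of TMM-scaled CPM plus 0.1; each point is a library, grey for control lentivirus and red for GCNT1 overexpression, and short lines are group means. The red and grey points separate for MBNL3, ESRP2 and QKI and overlap for the other 6 genes.

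MBNL3, which is best known as an MBNL protein that holds back muscle differentiation, lies on chromosome X of hg38 from 132369320 to 132490035. It was counted 2, 1 and 0 times in control replicates 1 to 3 and 83, 112 and 114 times in GCNT1 replicates 1 to 3. The 3 GCNT1 libraries were close to one another and all far above the controls, each of which was at or under the floor of 3 counts, 0.213 to 0.259 CPM over the 6 libraries. The level with GCNT1 was 7.80 ± 0.55 CPM (SD, n = 3). Summed over libraries, 309 counts stood against 3, a ratio of 96.3 with an exact 95% interval of 32.6 to 470 that covers counting error only. Among the 12466 genes with a transcript length, ranked by level per length, MBNL3 was at percentile 0.00802 in controls and 7.48 with GCNT1. It was thus still weakly expressed with GCNT1. Its control percentile follows from its choice for near-zero control counts.

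The RefSeq promoter windows of GRCh38.p14, 250 bases before to 50 bases after each start, list 4 starts for MBNL3, and the counts do not show which of them the reads came from. Windows of the outermost start and of the third start are printed as an example near the median in CpG number and an example with few, with the CpG dinucleotides, on which DNA methylation acts, in capitals. The first, chrX:132489986-132490285 on the minus strand, has 16 CpG, and the second, chrX:132440210-132440509 on the same strand, has 2, where the median of 35116 windows of this length is 14.
MBNL3 start 1: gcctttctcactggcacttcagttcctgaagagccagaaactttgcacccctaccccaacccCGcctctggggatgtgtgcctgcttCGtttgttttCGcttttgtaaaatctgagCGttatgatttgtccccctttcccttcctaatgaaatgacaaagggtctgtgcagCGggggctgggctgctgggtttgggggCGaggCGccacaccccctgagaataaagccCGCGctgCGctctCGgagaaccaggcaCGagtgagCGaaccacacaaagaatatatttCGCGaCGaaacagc
MBNL3 start 3: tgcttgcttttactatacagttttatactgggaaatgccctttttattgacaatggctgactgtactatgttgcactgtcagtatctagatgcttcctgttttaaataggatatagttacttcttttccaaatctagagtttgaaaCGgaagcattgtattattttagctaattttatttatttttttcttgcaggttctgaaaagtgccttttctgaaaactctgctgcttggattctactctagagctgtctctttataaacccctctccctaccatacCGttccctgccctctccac
The other 2 windows of MBNL3 hold 17 and 7 CpG. The E-box CAGGTG, read on both strands and so also as CACCTG, the letters that ZEB and SNAI factors recognise, is in none of the 4 windows and in 20.6% of all windows. Methylation was not measured.

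MBNL1, the main MBNL protein of most tissues, is on chromosome 3 from 152243632 to 152465780. Control replicates 1 to 3 held 5208, 4977 and 4520 of its counts and GCNT1 replicates 1 to 3 held 4216, 5889 and 5929. The groups overlapped, with GCNT1 replicate 1 the lowest after scaling. MBNL1 ranged from 382 to 414 CPM in controls and from 364 to 429 CPM with GCNT1, a log2 fold change of 0.02 with a 95% interval from -0.11 to 0.15 (edgeR adjusted p = 0.780). MBNL2, the paralogue that predominates in brain, is on chromosome 13 from 97141834 to 97394120. Its counts were 478, 478 and 400 in control replicates 1 to 3 and 401, 561 and 531 in GCNT1 replicates 1 to 3. Its groups overlapped too, and its log2 fold change was 0.04 with an interval from -0.13 to 0.21 (edgeR adjusted p = 0.687). Both intervals lie inside the 0.58 limit.

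Within the MBNL family, levels per kilobase of the canonical transcript (RPKM) were summed and each gene's share was taken. MBNL1 made up 90.1% ± 0.37 of the family in controls and 89.3% ± 0.31 with GCNT1 (SD, n = 3). MBNL2 made up 9.85% ± 0.36 and 9.89% ± 0.31. MBNL3 held 0.0155%, 0.00809% and 0% of the family in control replicates 1 to 3 and 0.787%, 0.760% and 0.773% in GCNT1 replicates 1 to 3. The canonical MBNL3 transcript is long, at 12302 bases against 5516 for MBNL1, and as a share of raw counts MBNL3 held 1.74% with GCNT1. MBNL1 stayed 113 to 117 times above MBNL3 per kilobase in the 3 GCNT1 libraries. The summed family level was 76.6 to 83.2 RPKM in controls and 74.1 to 87.2 RPKM with GCNT1, ranges that overlapped. No stretch of 75 bases, the read length, of the canonical MBNL3 transcript occurs in a GENCODE 44 transcript of another gene, and none of MBNL1 or MBNL2 does either.

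Of the 50 genes of the table nearest to MBNL3 on chromosome X, 22 were higher and 6 lower by the adjusted p alone, 7 were called higher and 3 lower, and the median log2 fold change was 0.17. Of all genes 28.3% were higher and 29.3% lower by the adjusted p, and 8.28% were called higher and 11.1% lower. STK26, a kinase gene 3 places away on the low side, rose (log2 fold change 0.71, SE 0.07, edgeR adjusted p = 1.08e-06). Next to it RAP2C, a small GTPase gene, was higher by 0.44 on the log2 scale (edgeR adjusted p = 7.23e-05), under the fold change limit. RAP2C-AS1 overlaps MBNL3 on the opposite strand and was present in control replicates 1 to 3 at 22, 21 and 16 counts and in GCNT1 replicates 1 to 3 at 27, 44 and 29 counts, with a log2 fold change of 0.66 (SE 0.24, edgeR adjusted p = 0.0294). That call was lost without control replicate 2 or 3 or GCNT1 replicate 2 (edgeR adjusted p = 0.0589, 0.0919 and 0.149) and with DESeq2 (adjusted p = 0.106). Whether the counting used strand is not given in the sources used here, so reads from their shared stretch cannot be assigned to either with certainty. On the other side HS6ST2, a heparan sulfate sulfotransferase gene, had 25, 17 and 19 counts in control replicates 1 to 3 and 0 counts in every GCNT1 library, at least 6.38-fold lower than controls against the highest floor of 3 counts in a GCNT1 library. Beyond it the glypican gene GPC4 rose (log2 fold change 1.25, SE 0.09, edgeR adjusted p = 9.72e-08), and PHF6 had a log2 fold change of 0.19.

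**Figure D2:**
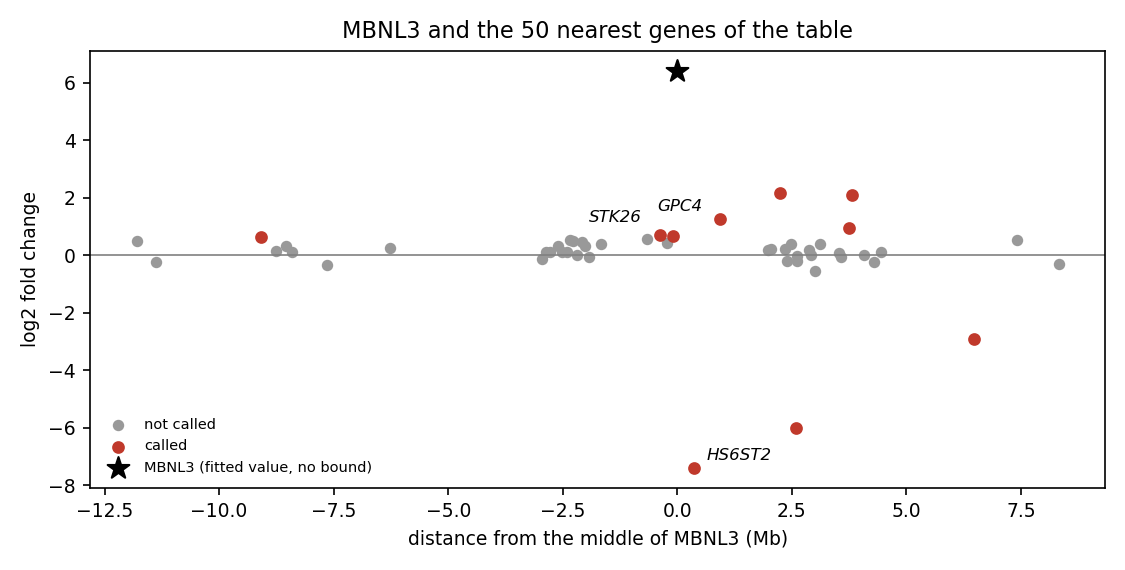
Log2 fold change of MBNL3 (star) and of the 50 nearest genes of the table against their distance in Mb from the middle of MBNL3; red points were called and grey points were not. MBNL3 and HS6ST2 lie at opposite extremes, fitted values that depend on the small count edgeR adds, and 40 of the 50 neighbours were not called.

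The pattern most like that of MBNL3, by Euclidean distance of log2 CPM over the 6 libraries, was that of MARCHF4, a membrane ubiquitin ligase gene, at a distance of 1.44. In control replicates 1 to 3 there were 1, 0 and 1 counts of it, and in GCNT1 replicates 1 to 3 there were 71, 57 and 82. The next were the imprinted gene MEST at 2.01, the lipase gene PNPLA4 at 2.18 and MYCT1 at 2.24, each with 1 to 5 counts in every control library. Of the genes named, PNPLA4 is on chromosome X and the others are not.

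ESRP2, which maintains epithelial splice isoforms together with its paralogue ESRP1, is on chromosome 16 from 68229033 to 68236127. Control replicates 1 to 3 held 285, 232 and 260 of its counts and GCNT1 replicates 1 to 3 held 418, 455 and 520. Every GCNT1 library was above every control library after scaling. ESRP2 rose to 35.4 ± 1.98 CPM from a control level of 21.1 ± 2.15 CPM (SD, n = 3 per group), with a log2 fold change of 0.75 (SE 0.09, 95% interval 0.56 to 0.93, edgeR adjusted p = 8.05e-06). Among its 50 nearest genes, from -0.97 to 2.04 Mb away, the median log2 fold change was 0.21. By the adjusted p 30 of them were higher and 8 lower, and 3 were called higher and 2 lower. Of all genes 28.3% were higher and 29.3% lower by the adjusted p, and 8.28% were called higher and 11.1% lower. Relative to the median of its neighbours ESRP2 rose by 0.54, under the 0.58 limit. The neighbouring NFATC3 gene on the opposite strand overlaps the ESRP2 locus, as do 2 long non-coding genes of the same strand, with 1 of which ESRP2 shares 1.16% of its 75-base windows.

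RBM47, an RNA-binding protein of epithelial cells whose loss is known from EMT, is on chromosome 4 from 40423280 to 40630852. It was weakly expressed, with 30, 35 and 23 counts in controls and 31, 41 and 44 counts with GCNT1. The groups overlapped, and the log2 fold change of 0.30 had an interval from -0.12 to 0.72 (edgeR adjusted p = 0.204). That interval reaches nearly to the 0.75 of ESRP2.

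QKI, a STAR-family protein that shapes mesenchymal splicing and the formation of circular RNAs in EMT, is on chromosome 6 from 163414718 to 163578592. Its counts were 2902, 2916 and 2620 in control replicates 1 to 3 and 1557, 2119 and 2116 in GCNT1 replicates 1 to 3. All 3 GCNT1 libraries were below all controls. QKI fell to 146 ± 10.4 CPM from a control level of 229 ± 6.48 CPM (SD, n = 3 per group), with a log2 fold change of -0.64 (SE 0.06, 95% interval -0.77 to -0.52, edgeR adjusted p = 6.65e-07), or a change of -36.0%. QKI was not alone in its region. Among its 50 nearest genes, from -12.1 to 7.08 Mb away, the median log2 fold change was -0.41. By the adjusted p 35 of them were lower and 5 higher, and 12 were called lower and 4 higher. Of all genes 29.3% were lower and 28.3% higher by the adjusted p, and 11.1% were called lower and 8.28% higher. Relative to the median of its neighbours QKI fell by 0.24. GENCODE 44 places no other protein-coding or lncRNA gene over QKI.

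RBFOX2, a regulator that favours mesenchymal and muscle exons, is on chromosome 22 from 35738736 to 36028824. In control replicates 1 to 3 there were 28, 41 and 31 counts of it, and in GCNT1 replicates 1 to 3 there were 55, 40 and 35. Only GCNT1 replicate 1 was above all controls, and the others lay within their range. The log2 fold change of 0.29 had an interval from -0.26 to 0.83 (edgeR adjusted p = 0.345), an interval that holds both 0 and the 0.75 of ESRP2. Without GCNT1 replicate 1 the value was -0.01.

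CELF1, which opposes MBNL proteins on some exons, is on chromosome 11 from 47465937 to 47565539. Control replicates 1 to 3 held 1774, 1840 and 1700 of its counts and GCNT1 replicates 1 to 3 held 1576, 1992 and 2120, ranges that overlapped. Its log2 fold change was 0.00 with an interval from -0.12 to 0.11 (edgeR adjusted p = 0.968). PTBP1, the polypyrimidine tract-binding protein that represses many exons in dividing cells, is on chromosome 19 from 797452 to 812312. Its counts were 5214, 5410 and 5174 in control replicates 1 to 3 and 4969, 5288 and 5814 in GCNT1 replicates 1 to 3. The groups overlapped after scaling, and the log2 fold change was -0.07 with an interval from -0.18 to 0.04 (edgeR adjusted p = 0.247).

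**Figure D3:**
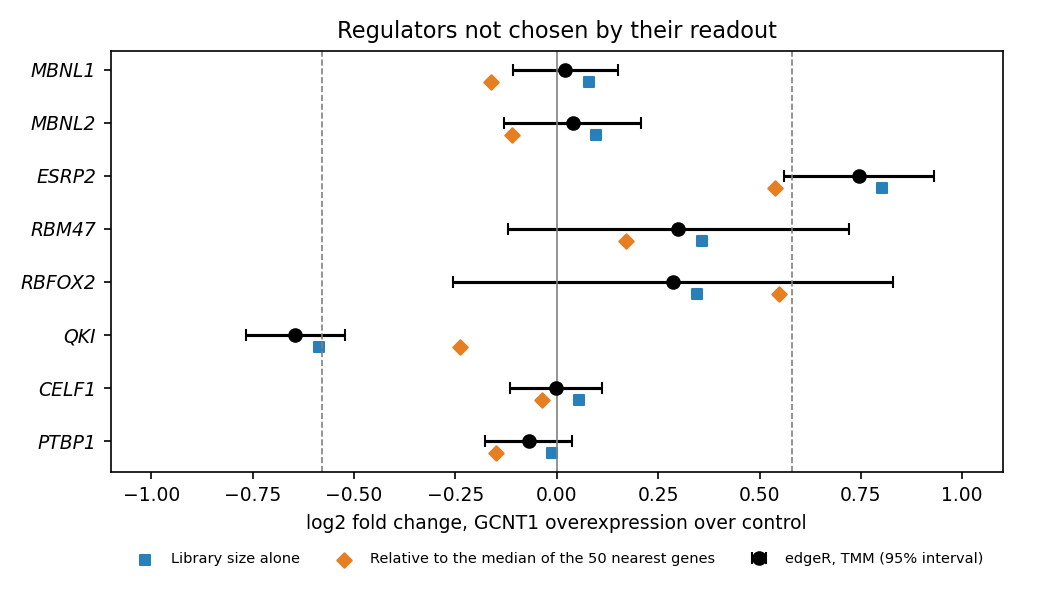
Log2 fold change of GCNT1 overexpression over control for the 8 regulators not chosen by their values; black points with bars are the edgeR estimate with its 95% interval, blue squares use library size alone, orange diamonds are relative to the median of the 50 nearest genes, and dashed lines mark 0.58. The ESRP2 and QKI points lie past the dashed lines, while their diamonds, at 0.54 and -0.24, lie inside them.

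Per kilobase, PTBP1 was the highest of the 9 genes in controls, at 134 ± 3.95 RPKM. MBNL1 followed with 72.3 ± 2.86 RPKM, QKI with 24.4 ± 0.69, CELF1 with 17.7 ± 0.42, MBNL2 with 7.90 ± 0.54 and ESRP2 with 6.15 ± 0.63 RPKM. RBM47 with 0.465 ± 0.085 and RBFOX2 with 0.376 ± 0.075 RPKM did not differ beyond their spread, and MBNL3 was last. RBFOX2 had few counts, and since the annotation and strand setting of the counting are not given, its low level and rank hold for these counts and may not hold under another counting. With GCNT1 the order changed in 3 places. CELF1, at 17.7 ± 0.87 RPKM, lay above QKI, at 15.6 ± 1.11 RPKM, and ESRP2, at 10.3 ± 0.58 RPKM, lay above MBNL2, at 8.11 ± 0.67 RPKM, in both cases without overlap between the 3 libraries of each gene. MBNL3, at 0.634 ± 0.044 RPKM, reached the range of RBM47, at 0.572 ± 0.044 RPKM. The ratio of QKI to ESRP2 per kilobase was 3.72, 4.59 and 3.68 in control replicates 1 to 3 and 1.36, 1.70 and 1.49 in GCNT1 replicates 1 to 3. The lower ratio with GCNT1 follows from the opposite calls of these 2 genes and is no further result.

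Other regulators of tissue-specific splicing were counted from a list written from general knowledge, 22 of whose 37 symbols had a row. In it 1 gene was called higher and 4 lower (22.7% called), and 6 were higher and 9 lower by the adjusted p alone, or 7 and 7 when scaled by library size alone. The share called was close to the 19.3% of all genes, of which 28.3% were higher and 29.3% lower by the adjusted p. The median log2 fold change was -0.07. NOVA2, a neuronal splicing factor, was found in control replicates 1 to 3 at 38, 40 and 38 counts and in GCNT1 replicates 1 to 3 at 0, 1 and 0 counts, a control-to-GCNT1 ratio of 124 (exact 95% interval of counting error 21.8 to 4942, edgeR adjusted p = 1.22e-07). RBPMS, a regulator of smooth muscle splicing, fell from 64.1 ± 4.83 to 31.2 ± 2.18 CPM (log2 fold change -1.04, SE 0.08, edgeR adjusted p = 1.03e-07). RBM20, which acts on titin in the heart, fell by 2.01 on the log2 scale, and RBM24, another muscle regulator, by 0.67, or by 0.576 and under the limit without GCNT1 replicate 1. The called rise was in ELAVL2, a neuronal Hu protein, from 12.3 ± 1.06 to 20.9 ± 0.51 CPM (log2 fold change 0.76, SE 0.09, edgeR adjusted p = 9.18e-06). The paralogues of PTBP1 went opposite ways below the fold change limit, PTBP2 with -0.46 and PTBP3 with 0.33.

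The general splicing machinery had few called genes, and the shares stand beside 19.3% of all genes with no test of the difference. Among 18 SR proteins, TRA2 proteins and their kinases 1 gene was called (5.56%), and by the adjusted p alone 2 were higher and 9 lower, or 2 and 5 with library size. The called gene was CLK4, a kinase of SR proteins, with a log2 fold change of -0.70, or -0.56 and not called without GCNT1 replicate 3. Among 28 hnRNP genes 1 was called (3.57%), with 3 higher and 10 lower by the adjusted p, or 7 and 8 with library size. This was HNRNPLL, known for CD45 splicing, with a log2 fold change of -0.74 beside a median over its 50 nearest genes of -0.44. Among 46 core spliceosome genes 1 was called (2.17%), with 10 higher and 12 lower by the adjusted p, or 15 and 9 with library size. The gene was SNRPF, an Sm ring protein, with a log2 fold change of 0.60, or 0.53 and not called without GCNT1 replicate 1. Over all genes the same change of scaling turned 3593 higher and 3721 lower into 4290 and 3144.

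Genes whose isoforms are known to switch in EMT include the targets of ESRP2, QKI and RBFOX2, and their total transcript counts are separate from isoform use. Of 40 such genes 39 had a row, and 4 were called (10.3%), all lower, beside 19.3% of all genes called and 11.1% called lower. By the adjusted p alone 5 were higher and 17 lower, or 7 and 11 with library size, where 28.3% of all genes were higher and 29.3% lower, and the median log2 fold change was -0.15. FGFR1 fell from 119 ± 3.28 to 69.7 ± 2.89 CPM (log2 fold change -0.77, SE 0.05, edgeR adjusted p = 8.50e-08). ADD3, a membrane skeleton gene, fell by 1.02, LSR, a tricellular junction gene, by 1.25 and EPB41L5 by 0.67 on the log2 scale, the last by 0.52 and not called without GCNT1 replicate 1. CD44 had 502 ± 9.67 and 495 ± 12.4 CPM, groups that overlapped. ENAH overlapped as well (log2 fold change -0.15, edgeR adjusted p = 0.0617). CTNND1 also overlapped (log2 fold change -0.29, edgeR adjusted p = 0.135). It had few counts, 99, 86 and 81 in control replicates 1 to 3 and 51, 82 and 100 in GCNT1 replicates 1 to 3.

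Of 30 genes known for MBNL-regulated exons 24 had a row, and 5 were called (20.8%), all lower, with a median log2 fold change of -0.03. Of all genes 19.3% were called, 11.1% lower. By the adjusted p alone 3 were higher and 9 lower, or 4 and 8 with library size, which left 4 called, and 28.3% of all genes were higher and 29.3% lower. DMD, the dystrophin gene, was found in control replicates 1 to 3 at 380, 351 and 362 counts and in GCNT1 replicates 1 to 3 at 23, 27 and 28 counts (log2 fold change -3.90, SE 0.11, edgeR adjusted p = 1.50e-11). MYO5A fell by 0.91 and CLASP2 by 0.68 on the log2 scale, and CLCN1, the muscle chloride channel gene, by 0.61. The call of CLCN1 was lost without control replicate 3 (-0.54), without GCNT1 replicate 3 and with library size (-0.55 in both), and that of CLASP2 without control replicate 1 (-0.57). The insulin receptor gene INSR, a classical MBNL target in both lists, had a log2 fold change of 0.09 and groups that overlapped.

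**Figure D4:**
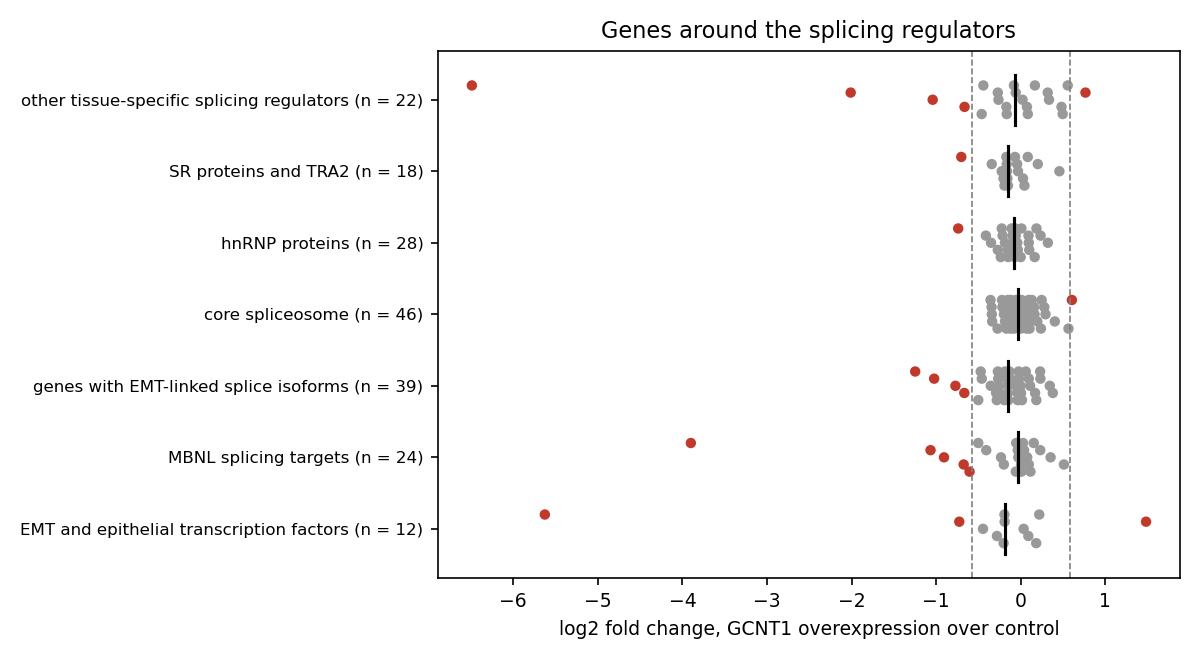
Log2 fold change of each gene in the 7 lists around the regulators; red points were called, grey points were not, black bars are list medians and dashed lines mark 0.58. NOVA2, TWIST2 and DMD stand far to the left, and the SR, hnRNP and spliceosome lists hold 1 red point each.

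Transcription factors known to act on ESRP genes or on EMT were taken from a list of 18, of which 12 had a row and GRHL2 was not analysed here. In it 1 was called higher and 2 lower, 25.0% of those tested beside 19.3% of all genes. ZEB1, the textbook repressor of ESRP1 and ESRP2, had 64.5 ± 7.66 CPM in controls and 56.0 ± 3.42 CPM with GCNT1, groups that overlapped (log2 fold change -0.20, edgeR adjusted p = 0.0489, which was 0.154 with library size and up to 0.252, without control replicate 2). Its paralogue ZEB2 was weakly expressed and rose from 24, 17 and 11 counts in controls to 40, 49 and 67 with GCNT1 (log2 fold change 1.48, SE 0.25, edgeR adjusted p = 0.000197). TWIST2 was found in control replicates 1 to 3 at 64, 66 and 72 counts and in GCNT1 replicates 1 to 3 at 2, 1 and 1 counts, a ratio of 54.0 with an exact 95% counting interval of 20.8 to 200.1. ELF3, an epithelial factor, fell by 0.73 on the log2 scale, and SNAI2 had a log2 fold change of -0.28 with groups that overlapped.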

How the data were processed

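The authors used Cutadapt for trimming of single 75 bp reads, HISAT2 for alignment to hg38 and featureCounts for counting, and the deposited values are raw counts per Entrez gene, 1 column per library, neither normalized nor pooled. The gene annotation, the strand setting and the rule for low counts are not given in the sources used here. Symbols and positions were taken from RefSeq (GRCh38.p14, 12661 identifiers matched), and canonical transcript lengths and overlaps from GENCODE 44, the same genome as hg38.

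The test was edgeR 4.0.16 under R 4.3.3 (filterByExpr, which kept all 12703 genes, TMM factors, quasi-likelihood test of the 2 groups, Benjamini-Hochberg adjustment), and the call limits were 0.05 for the adjusted p and 0.58 for the size of the log2 fold change. Log2 CPM used a prior count of 2. Standard errors were the log2 fold change over the root of the F statistic. Alternatives were limma-voom (limma 3.58.1, the tool of the study), DESeq2 1.42.0, RLE factors, library size, no filter, 10 counts in every library, the replicate block and each library left out. On simulated counts edgeR recovered 97% of 197 changed genes among 12655, with 6.37% of its calls false. How edgeR does where 57.6% of all genes pass the adjusted p, as they did here, was not tested. Whether the 3 lines of a group came from separate transductions is not given, so p-values measure the spread between these lines; libraries of a group differed by more than counting noise (chi-square per degree of freedom 1.65 to 5.61). The members and lists were chosen with earlier results of these data known. Named genes were the members, GCNT1, up to 4 called genes with the smallest p per list, GRHL2, ZEB1 and SNAI2, the 3 neighbours of MBNL3 on each side and the 5 genes nearest to it in pattern, some of which are not reported here. KRT8, KRT18, RBM24, CD44, ENAH, CTNND1, INSR, PTBP2, PTBP3 and CLCN1 were added after their values were seen.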

Additional observations from a re-analysis of the deposited data

How the results depend on the processing

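The count of called genes ran from 1980 (10 counts in every library, a filter that also drops MBNL3) to 2513 (library size) over the refits, with 2459 by limma-voom and 2312 by DESeq2, and ESRP2 and QKI were the 2 called members in each refit. There ESRP2 ran from 0.66 to 0.81 and QKI from -0.68 to -0.59 on the log2 scale, with QKI nearest to the 0.58 limit under library size and without GCNT1 replicate 1. Relative to the median of the 50 nearest genes, which was added once the data had been seen, neither passed the limit (ESRP2 0.54, QKI -0.24). There MBNL1 (-0.16) and MBNL2 (-0.11) changed sign. RBFOX2 went from 0.29 to 0.55 and PTBP1 from -0.07 to -0.15, both also under the limit. No test was run against that median. Signs of uncalled members also changed with library size for CELF1 (0.0551) and when libraries were left out, where the log2 fold change ran from -0.0164 to 0.0905 for MBNL1, from -0.0158 to 0.0934 for MBNL2, from -0.0103 to 0.47 for RBFOX2 and from -0.0357 to 0.0343 for CELF1; the cause was not tested. With libraries left out RBM47 ran from 0.18 to 0.44 and PTBP1 from -0.11 to -0.02, both uncalled throughout. The MBNL3 share of its family was 1.74% from raw counts, since its transcript is long, and 0.767% to 0.780% with a GCNT1 library left out. Calls in lists that moved by 1.5 times or more were 3 other tissue-specific regulators and 2 EMT transcription factors with 10 counts in every library, which drops genes that fell to few counts (NOVA2, RBM20 and TWIST2), 0 to 1 SR genes (0 without GCNT1 replicate 3), 0 to 2 core spliceosome genes (2 with library size or without GCNT1 replicate 2, 0 without GCNT1 replicate 1), and 3 markers of other cell types without GCNT1 replicate 2. With libraries left out, the other lists gave 5 to 6 tissue-specific regulators, 3 to 5 EMT-linked isoform genes, 4 to 5 MBNL targets and 3 to 4 prostate markers.

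A fit with a replicate block called 2423 genes, and ESRP2 (0.75) and QKI (-0.65) were still the called members. The numbers share no more than a label: deviations of same-numbered libraries correlated across genes at -0.27, 0.00 and -0.11. The lists are small and per-gene counts carry no isoform information. RBM47 and RBFOX2, at 23 to 55 counts per library, had the widest intervals of the members tested; the parts of depth and of spread between libraries in them were not separated.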
